A study of Mus musculus with 6 samples.

Results

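Imprinted genes are described here in primary mouse cardiac fibroblasts with and without deletion of Tet3, cluster by cluster and by the parental allele each gene is known to use. The list holds 40 genes from 18 genomic clusters, matched by symbol to the expression table, and 39 of them had a row among the 22063 genes measured. Zrsr1, a splicing factor retrogene inside Commd1, had none and was not analysed here. The rule for the list uses gene names and no measured value, but the genes were chosen with earlier results of these data known.

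All fibroblasts came from hearts of Tet3 f/f mice and all were treated with TGF-β. Ad-GFP was given to the control cultures (GFP, n = 3 libraries, labelled Control) and Ad-Cre to the deleted cultures (CRE, n = 3 libraries, labelled Tet3 knockout). The virus was given before TGF-β. The comparison thus asks which transcripts differ between TGF-β-treated fibroblasts with and without prior deletion of Tet3. The groups also differ in the transgene the virus carries, so an effect of Cre itself and an effect of Tet3 loss cannot be told apart. No cells cultured without TGF-β are analysed. The study speaks of biological replicates, and neither it nor the labels say whether the libraries of a group came from separate animals or from separate cultures, so p-values measure the spread between these libraries. Libraries of a group differed by more than counting error (chi-square per degree of freedom of 4.05 to 12.1). RNA-seq reads per gene carried no parental information: the allele given with each gene below is textbook knowledge, for several genes limited to placenta or brain, and was not measured in these cells.

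Imprinted genes are transcribed from one parental copy, because a methylation mark set in the egg or sperm silences a promoter or switches on a noncoding RNA on the other copy. The marks sit at imprinting control regions that govern whole clusters, and zinc finger proteins such as ZFP57 and ZFP445 with TRIM28 and DNMT1 keep them through cell division. TET enzymes oxidise 5-methylcytosine, the first step of its active removal. Many imprinted genes act on fetal growth, with paternally expressed genes often promoting it and maternally expressed genes often restraining it.

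Total counts per library ran from 17002126 to 20343590, so that 3 counts corresponded to between 0.147 and 0.176 CPM (reads of a gene scaled to a common library total). This floor uses library totals alone, whereas the other CPM values are also scaled by a factor per library (TMM). Tet3 itself had 1044, 965 and 1000 counts in GFP and 642, 649 and 637 in CRE (log2 fold change -0.72 ± 0.08 SE, adjusted p = 5.36e-05 by edgeR's quasi-likelihood test with Benjamini-Hochberg adjustment). The deposited counts cover the whole gene, so they do not separate the deleted exons from the rest. Fibroblast markers were present at a summed 29290 to 30460 CPM in GFP and 18110 to 19520 CPM in CRE, 8 of 9 lower in CRE, and the summed cardiomyocyte markers were near the floor in both groups (0.846 to 1.09 against 1.95 to 2.69 CPM). Of the 7 cardiomyocyte markers, Myh6 was at 0 in all 6 libraries and only Nppb, a stress-induced natriuretic peptide, could be tested. Nppb had 2, 1 and 3 counts in GFP and 28, 21 and 13 in CRE (higher, log2 fold change 3.23 ± 0.53, adjusted p = 0.000565). It passed the count filter only through its CRE libraries, so it had to differ in order to be tested. Of the 5 myofibroblast markers all were lower in CRE (12990 to 14700 against 7005 to 7790 CPM). Endothelial markers were also detected, 7 of 9 lower and Eng higher in CRE (1081 to 1142 against 976 to 1024 CPM). Eng made up most of that sum (mean 644 CPM in GFP and 799 in CRE), so the sum understates the fall of the 7. Macrophage markers were detected too, 2 of 4 tested lower (32.5 to 35.5 against 19.96 to 23.8 CPM), as were smooth muscle and pericyte markers, 4 of 8 lower and 1 higher (95.8 to 105 against 86.1 to 99.9 CPM). Of 3 epicardial markers tested, 2 were higher and 1 lower. In bulk libraries, fewer cells of a type and less RNA per cell cannot be told apart, and the part of these shifts in the results on imprinted genes was not tested.

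The promoters of the strongly changed imprinted genes are shown first, because imprinting marks act on CpG-rich starts. Cdkn1c, also strongly changed, had no RefSeq entry in the promoter set used and is not shown. Capitals mark each CG dinucleotide, and each run gives the 250 bases before a RefSeq start (build GRCm38.p6), 5′ to 3′ on the strand of the gene. For genes with several starts the one with the most CG dinucleotides is shown, and for Zdbf2 also an upstream start. That upstream start was chosen because it held the most matches to TGCCGC, described below, among the listed promoters.
Mest, chr6:30737800-30738049, plus strand: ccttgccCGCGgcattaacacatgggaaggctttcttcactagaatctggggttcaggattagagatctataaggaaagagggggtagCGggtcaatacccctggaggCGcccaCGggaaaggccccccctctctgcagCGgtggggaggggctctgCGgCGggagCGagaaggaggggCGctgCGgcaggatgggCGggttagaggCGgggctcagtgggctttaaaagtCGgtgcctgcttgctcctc
Peg3, chr7:6730420-6730669, minus strand: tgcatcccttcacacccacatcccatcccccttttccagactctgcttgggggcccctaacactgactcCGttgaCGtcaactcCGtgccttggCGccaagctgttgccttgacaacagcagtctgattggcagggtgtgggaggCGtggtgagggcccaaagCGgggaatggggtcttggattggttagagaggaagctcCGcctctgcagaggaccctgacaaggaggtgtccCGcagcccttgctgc
Grb10, chr11:12037421-12037670, minus strand: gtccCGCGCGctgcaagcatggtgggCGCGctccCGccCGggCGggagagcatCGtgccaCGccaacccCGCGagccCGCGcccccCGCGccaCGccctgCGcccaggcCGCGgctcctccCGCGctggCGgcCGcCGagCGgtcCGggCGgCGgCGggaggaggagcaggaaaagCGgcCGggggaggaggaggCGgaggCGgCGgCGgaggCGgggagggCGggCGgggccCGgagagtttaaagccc
Ppp1r9a, chr6:4903061-4903310, plus strand: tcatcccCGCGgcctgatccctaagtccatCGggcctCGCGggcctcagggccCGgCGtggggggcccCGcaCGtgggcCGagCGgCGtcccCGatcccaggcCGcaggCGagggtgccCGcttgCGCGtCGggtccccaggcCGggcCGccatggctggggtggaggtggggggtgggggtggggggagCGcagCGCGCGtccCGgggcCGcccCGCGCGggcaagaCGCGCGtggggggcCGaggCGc
Dio3, chr12:110278980-110279229, plus strand: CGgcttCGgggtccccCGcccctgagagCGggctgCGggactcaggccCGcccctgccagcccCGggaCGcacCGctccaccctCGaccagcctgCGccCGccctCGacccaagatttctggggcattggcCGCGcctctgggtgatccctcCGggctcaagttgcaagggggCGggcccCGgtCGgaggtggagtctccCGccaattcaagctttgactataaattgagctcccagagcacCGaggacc
Zdbf2 upstream start, chr1:63200108-63200357, plus strand: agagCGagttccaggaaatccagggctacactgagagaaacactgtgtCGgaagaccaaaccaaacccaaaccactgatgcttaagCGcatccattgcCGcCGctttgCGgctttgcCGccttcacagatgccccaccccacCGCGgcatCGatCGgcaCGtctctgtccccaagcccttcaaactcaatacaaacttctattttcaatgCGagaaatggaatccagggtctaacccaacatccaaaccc
Zdbf2 main start, chr1:63273019-63273268, plus strand: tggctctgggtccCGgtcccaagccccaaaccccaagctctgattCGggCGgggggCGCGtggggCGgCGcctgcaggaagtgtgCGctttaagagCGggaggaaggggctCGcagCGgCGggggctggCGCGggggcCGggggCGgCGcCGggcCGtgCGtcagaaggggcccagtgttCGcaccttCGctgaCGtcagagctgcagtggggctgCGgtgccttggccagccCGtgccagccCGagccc

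These 7 stretches held from 8 CG dinucleotides (Peg3) to 40 (Grb10), with 14 at Mest, 35 at Ppp1r9a, 21 at Dio3, and 13 and 26 at the upstream and main starts of Zdbf2. Over windows of 300 bases (250 before the start and 50 after it), the 48 promoters of 32 listed genes had a median of 17 CG dinucleotides, against 7 for all 32851 promoters (quartiles 3 and 20). The letters TGCCGC, which ZFP57 binds when methylated, were searched on both strands. They occurred in 11 of the 48 promoters (22.9%) and in 11.6% of all promoters, and in 10 of 47 (21.3%) with a pair of Mest starts 3 bases apart counted once, with 2 matches in the Mest stretch and 3 in the upstream Zdbf2 stretch. The palindrome GGGGCCCC, bound by the Plagl1 product ZAC1, occurred in 3 of the 48 (6.25%) and in 1.08% of all promoters. It lies in the stretches shown for Peg3 and Ppp1r9a and in the Usp29 promoter, which covers the same bases as that of Peg3. Such matches describe letters and do not show binding. The listed promoters held more CG dinucleotides than all promoters, and the sets were not matched for base content. These shares therefore do not show an enrichment of either word.

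Of the 30 imprinted genes with enough reads for a test, 8 were higher and 9 were lower in CRE at an adjusted p under 0.05, and 13 did not pass. With libraries scaled by their totals alone the split was 10 higher and 6 lower. Across all 12862 genes tested, 51.2% passed (25.5% higher and 25.7% lower), so the 56.7% of the imprinted genes that passed lies near the share for any gene in this experiment. At the same threshold with a fold of at least 1.5 either way, 7 imprinted genes passed (23.3%) against 17.3% of all genes. These were Peg3, Cdkn1c and Zdbf2, higher in CRE, and Mest, Grb10, Ppp1r9a and Dio3, lower in CRE. Cdkn1c, also counted among the 8 higher, passed the count filter only through its CRE libraries, so its direction was fixed by the filter. Zdbf2, also among the 8, exceeded 10 counts in GFP2 alone of the GFP libraries. It needed its CRE libraries to be tested, so the filter favoured its direction. The median log2 fold change over the 30 was -0.03 (0.005 over all genes), and 0.14 with library totals alone (0.17 over all genes). The median size of change was 0.26, and 0.25 over all genes. The CPM values of the groups did not overlap for 20 of the 30 (66.7%), near the 59.6% of all tested genes.

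**Figure D1:**
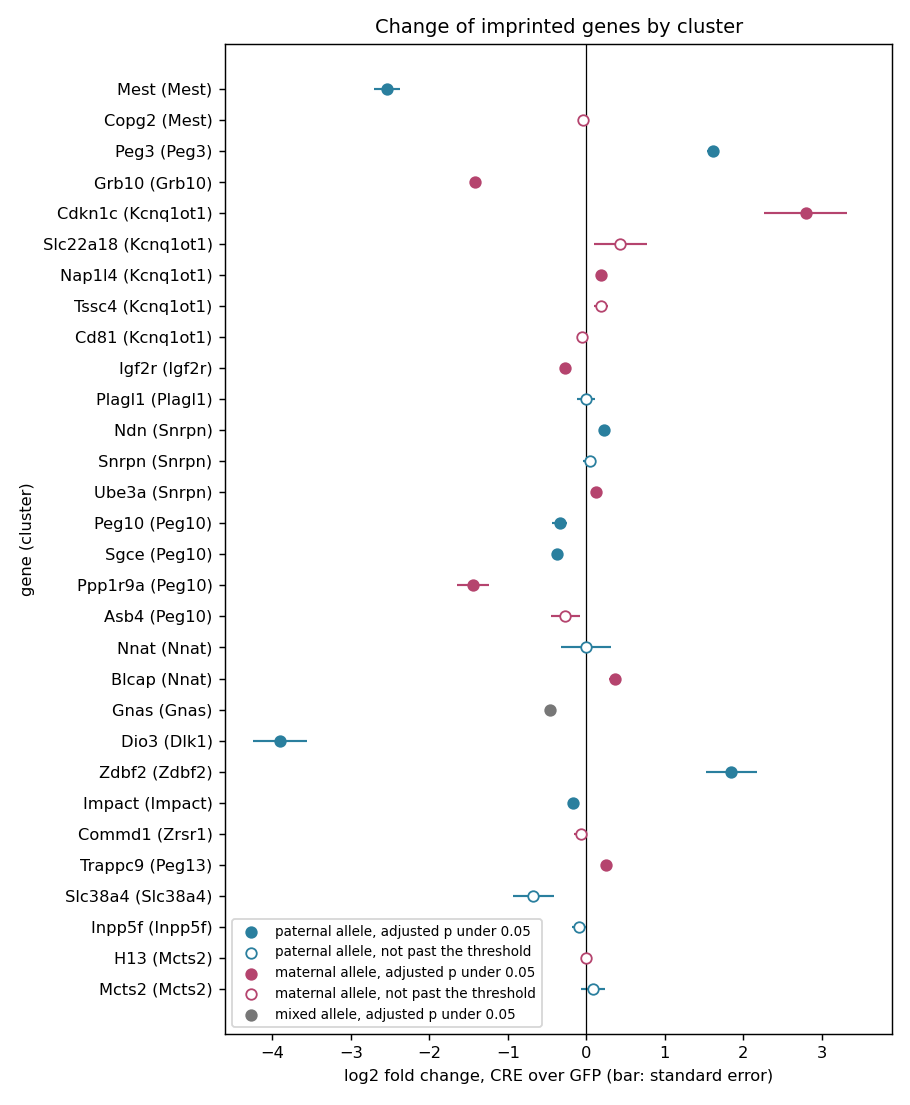
Log2 fold change (CRE over GFP, horizontal axis) of each tested imprinted gene, listed with its cluster on the vertical axis. Points are estimates over 3 libraries a group, bars are standard errors, colours give the allele known to be expressed, and filled points passed an adjusted p of 0.05. Dio3 and Mest lie farthest to the left and Cdkn1c farthest to the right, and most genes lie close to 0.

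By parental allele, both directions occurred in each class. Of 14 tested paternally expressed genes 3 were higher and 5 lower (median log2 fold change -0.05), and of 15 maternally expressed genes 5 were higher and 3 lower (median -0.01). With library totals alone these became 3 higher and 3 lower for the paternal class (median 0.11) and 7 higher and 2 lower for the maternal class (median 0.15), and on FPKM plus 1 the counts were equal to those and the medians were -0.02 and 0.16. The difference between the classes was not tested. In the main test the genes called higher include Zdbf2 (paternal) and Cdkn1c (maternal), which both needed their CRE libraries to be tested. Gnas, whose transcripts come from either parent, was lower. By role, 1 of 3 tested growth-promoting genes was higher (Peg3) and 2 were lower (Mest and Peg10). Of 5 tested growth-restraining genes, Cdkn1c (tested only through its CRE libraries) and Ndn were higher, Grb10 and Igf2r were lower, and Plagl1 did not pass. The 10 genes of general cell function were all tested, and 4 were higher (Nap1l4, Ube3a, Blcap and Trappc9) and none lower, each by less than the fold of 1.5, against 51.2% of all genes called and 25.5% called higher. The call of Ube3a was lost by DESeq2, without a filter and in 4 of the 6 fits that left out a library.

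**Figure D2:**
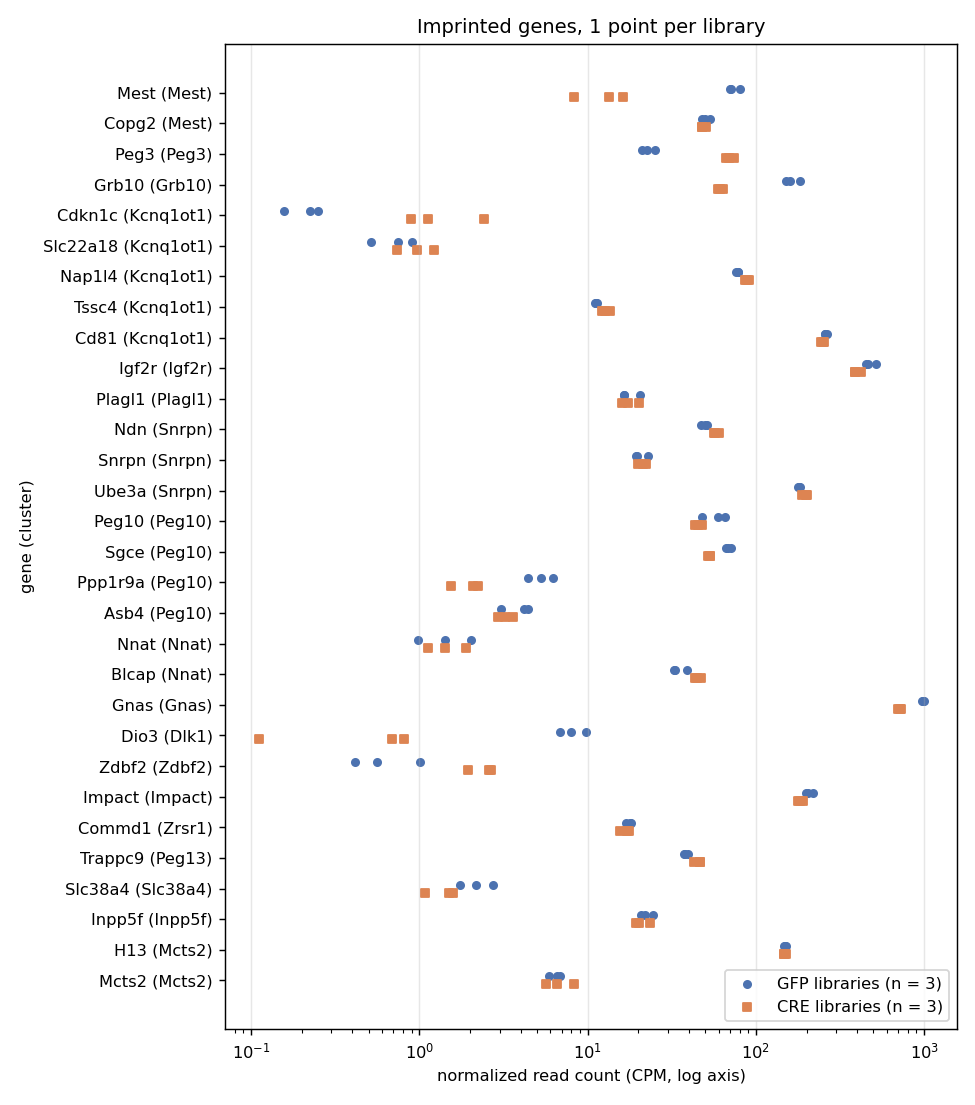
Normalized read count of each tested imprinted gene (CPM scaled by TMM, log axis), with 1 point per library and the gene and its cluster on the vertical axis. The 3 GFP and 3 CRE points stand well apart for Mest, Peg3, Grb10, Cdkn1c, Ppp1r9a, Dio3 and Zdbf2, and the spread of the low genes such as Cdkn1c and Dio3 is wide.

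Mest, an enzyme of the hydrolase fold that is transcribed from the paternal copy in growing mesoderm, was among the most strongly lowered of the set. It lies on chromosome 6 (GRCm38, 30723547 to 30748465, plus strand). Counts were 1296, 1263 and 1346 in GFP and 154, 243 and 309 in CRE. The groups did not come near each other, although the CRE libraries spread more widely around their mean. CRE held 17.2% of the GFP level (73.9 ± 5.82 against 12.7 ± 4.08 CPM, SD, n = 3 each), and the log2 fold change was -2.54 ± 0.17 (SE, adjusted p = 1.82e-06). Copg2, a coat protein of Golgi vesicles transcribed toward Mest from the opposite strand, had 772, 944 and 962 counts in GFP and 893, 866 and 963 in CRE. These ranges overlapped, with a log2 fold change of -0.04 ± 0.06 (adjusted p = 0.552). The ends of the 2 genes overlap on the genome, and the sources differ on whether the library kit kept strand, so reads over that stretch are uncertain. Klf14, a transcription factor gene without introns beyond Copg2, had 1 count in 1 GFP library and 0 in the other 5. Of 6 other tested genes that started within 500 kb of any listed gene of the cluster, a window used throughout, Ube2h was lower (-0.18) and Mkln1 higher (0.16), and none reached a fold of 1.5.

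The ratio of Mest to Copg2 within a library does not depend on how the libraries are scaled. Its log2 value was 0.75, 0.42 and 0.48 in GFP and -2.53, -1.83 and -1.64 in CRE. Mest thus exceeded Copg2 in counts in each control library and lay below it in each deleted library. The mean ratio moved from 0.55 ± 0.17 to -2.00 ± 0.47 (SD, n = 3), and the exact two-sided permutation p was 0.1, the smallest that 3 against 3 libraries can give.

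Peg3, a paternally expressed zinc finger protein, moved the other way. It occupies chromosome 7 from 6703892 to 6730431 on the minus strand. GFP libraries had 364, 447 and 405 counts and CRE libraries 1241, 1340 and 1310. Every CRE library held more than any GFP library, and the mean level rose from 23.0 ± 2.10 to 70.0 ± 3.84 CPM (SD, n = 3). The log2 fold change was 1.61 ± 0.07 (SE, adjusted p = 2.53e-07). Usp29, a ubiquitin protease whose start lies 0.147 kb from that of Peg3 on the opposite strand, had 2, 6 and 14 counts in GFP and 9, 4 and 8 in CRE and was too low to test. The maternally expressed neighbour Zim1, another zinc finger gene, was also too low (0, 3 and 5 against 4, 5 and 8 counts). Of 8 other tested genes within 500 kb, Zfp772 alone passed the test, higher in CRE by 0.59 ± 0.15 on the log2 scale (SE).

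Grb10, an adaptor that dampens insulin and IGF1 receptor signalling and is maternally expressed in most tissues, was lower in CRE. It lies on chromosome 11 from 11930508 to 12038683 on the minus strand. Counts were 2941, 2679 and 3080 in GFP and 1188, 1078 and 1162 in CRE. The groups were far apart and tight within CRE. CRE kept 37.4% of the GFP level (165 ± 16.4 against 61.6 ± 2.08 CPM, SD, n = 3), and the log2 fold change was -1.42 ± 0.07 (SE, adjusted p = 3.83e-07). Ddc, an amino acid decarboxylase whose imprinting is known from a heart isoform, had 4, 2 and 2 counts in GFP and 3, 7 and 6 in CRE and could not be tested. None of the 3 other tested genes within 500 kb passed the threshold.

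Dio3, the deiodinase that inactivates thyroid hormone, showed the lowest ratio of CRE to GFP among the tested imprinted genes. It is a gene of the Dlk1 cluster on chromosome 12 (110279068 to 110281097, plus strand). GFP libraries had 158, 121 and 153 counts and CRE libraries 15, 2 and 13. The CRE level was 6.52% of the GFP level (8.20 ± 1.52 against 0.534 ± 0.372 CPM, SD, n = 3), and the log2 fold change was -3.91 ± 0.34 (SE, adjusted p = 1.01e-05). Dlk1, a transmembrane protein that holds back fat cell differentiation and whose start is 826 kb away, stood at 1, 1 and 3 counts in GFP and 5, 4 and 3 in CRE. Rtl1, a retrotransposon-like gene, had 8, 7 and 3 against 11, 8 and 8. Neither could be tested, so Dio3 was the only tested gene of the 3 listed in the cluster. Among 5 other tested genes within 500 kb, 3 were higher and 1 lower, with Begain at 0.90, Hsp90aa1 at 0.51 and Wdr20 at 0.50 on the log2 scale. Begain lay near the count filter in GFP (13, 9 and 11 counts) and needed its CRE libraries (25, 17 and 23) to be tested. The filter thus favoured its direction.

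Zdbf2, a paternally expressed zinc finger gene on chromosome 1 (63273265 to 63314576, plus strand), was low in control cells and higher in CRE. Counts were 9, 18 and 8 in GFP and 48, 48 and 37 in CRE. The groups did not overlap, and the level rose from 0.663 ± 0.313 to 2.40 ± 0.386 CPM (SD, n = 3). The log2 fold change was 1.85 ± 0.33 (SE, adjusted p = 0.000959). In GFP only the second library exceeded 10 counts, so Zdbf2 needed its CRE libraries to pass the count filter. The filter thus favoured a higher value in CRE, and the test and the lack of overlap add little support to that direction. Per length it remained a weak gene (0.0517 ± 0.0244 against 0.209 ± 0.0335 FPKM, SD, n = 3). Of 5 other tested genes within 500 kb, Eef1b2 (-0.66) and Adam23 (-0.35) were lower and Ino80d (0.24) higher on the log2 scale.

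**Figure D3:**
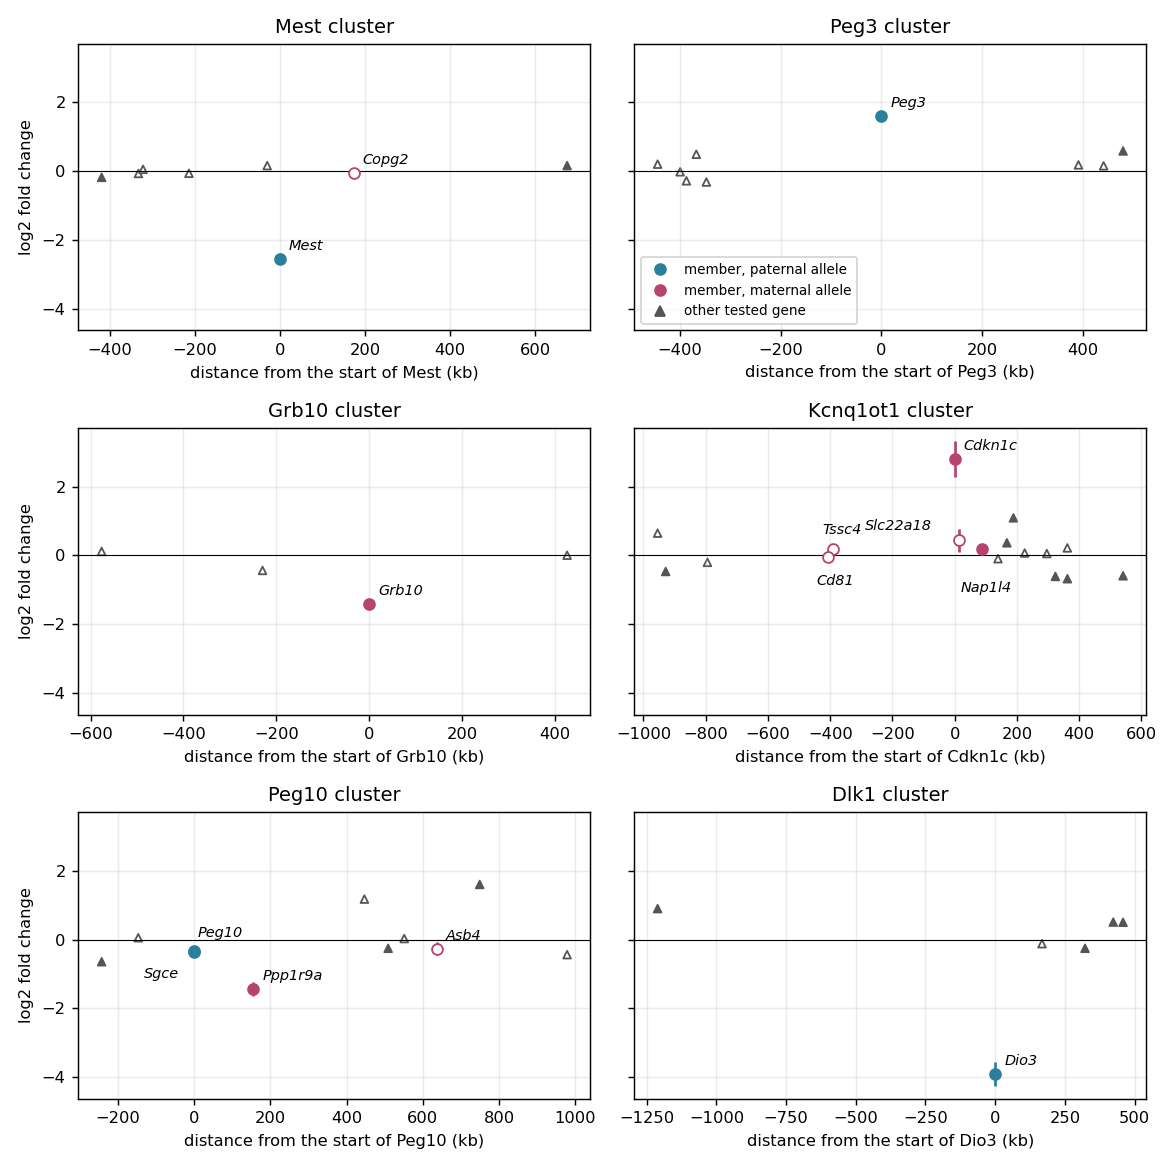
Log2 fold change (CRE over GFP, vertical axis) of imprinted genes (circles, coloured by allele, bars are standard errors) and other tested genes within 500 kb of a listed gene of the cluster (triangles) against the distance between gene starts in kb, for 6 clusters. Filled symbols passed an adjusted p of 0.05. Mest, Peg3, Grb10 and Dio3 stand apart from nearby genes, whereas Pdk4 near Asb4 and Tnfrsf22 near Nap1l4 also changed.

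The Kcnq1ot1 cluster on chromosome 7 was the largest of the list with 7 genes, all maternally expressed. Cdkn1c, the cyclin-dependent kinase inhibitor p57, had 4, 4 and 3 counts in GFP and 21, 44 and 17 in CRE. The lowest CRE library still held more reads than any GFP library, but the CRE libraries differed widely (0.210 ± 0.0483 against 1.49 ± 0.830 CPM, SD, n = 3). The log2 fold change was 2.79 ± 0.53 (SE, adjusted p = 0.00138). Cdkn1c passed the count filter only through its CRE libraries, so it had to differ in order to be tested, and it remained low per length (0.110 ± 0.0281 against 0.884 ± 0.418 FPKM).

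Nap1l4, a histone chaperone whose start is 88.1 kb from that of Cdkn1c, had 1259, 1389 and 1474 counts in GFP and 1598, 1639 and 1670 in CRE. The groups did not overlap, and the log2 fold change was 0.18 ± 0.04 (adjusted p = 0.00570). Slc22a18, a transporter lying between them, had 12, 16 and 10 counts against 18, 22 and 14, which overlapped (0.43 ± 0.34, adjusted p = 0.313). Tssc4, a spliceosome assembly protein, had 178, 199 and 218 against 253, 228 and 231 counts, with normalized values that did not overlap but a change that did not pass (0.19 ± 0.09, adjusted p = 0.0941). Cd81, a cell surface tetraspanin, was abundant in both groups at 4160, 4557 and 5077 against 4643, 4593 and 4620 counts, and its log2 fold change was -0.06 ± 0.04 (adjusted p = 0.248), turning to 0.10 with library totals alone. Apart from Cdkn1c, no tested gene of the cluster changed by a fold of 1.5. Phlda2, which limits placental growth, was at 0 in all GFP libraries and at 1, 0 and 2 counts in CRE. A count of 0 allows up to 0.176 CPM in the shallowest GFP library, by its total without TMM scaling. Ascl2, a factor of trophoblast, had 0, 6 and 2 against 2, 4 and 4 counts. Of 12 other tested genes within 500 kb, 2 were higher and 4 lower, with Tnfrsf22 at 1.09, Dhcr7 at -0.68 and Mrgpre at -0.61 on the log2 scale.

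The Peg10 cluster on chromosome 6 had 3 of its 4 tested members lower and none higher. Ppp1r9a, or neurabin, binds actin and protein phosphatase 1 and is maternally expressed in some tissues (4902917 to 5165661, plus strand). It had 71, 111 and 102 counts in GFP and 39, 28 and 42 in CRE. The groups did not overlap, and CRE held 36.7% of the GFP level (5.32 ± 0.922 against 1.96 ± 0.355 CPM, SD, n = 3), and the log2 fold change was -1.44 ± 0.20 (SE, adjusted p = 0.000208). Sgce, or epsilon-sarcoglycan, had 1062, 1266 and 1306 counts against 997, 939 and 1007 (-0.37 ± 0.05, adjusted p = 0.000142). Peg10, a retrotransposon-derived Gag-like gene whose start lies 0.099 kb from that of Sgce on the other strand, had 769, 1158 and 1148 counts against 887, 823 and 828. The raw counts of Peg10 overlapped through the first GFP library and the CPM values only just did not. Its log2 fold change was -0.34 ± 0.10 (adjusted p = 0.0148), and the call was lost with library totals alone (-0.17, adjusted p = 0.147), on FPKM plus 1 by limma (-0.14, adjusted p = 0.288) and without GFP2, GFP3 or CRE3 in turn (adjusted p from 0.0505 to 0.0584).

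Asb4, an adaptor of a ubiquitin ligase, had 49, 79 and 81 counts in GFP and 67, 53 and 61 in CRE, overlapping groups with a log2 fold change of -0.27 ± 0.19 (adjusted p = 0.259). Of the 7 other tested genes within 500 kb, Pdk4, a kinase that inhibits pyruvate dehydrogenase, was higher (1.60 ± 0.08) and Col1a2 (-0.65 ± 0.04) and Pon3 (-0.26 ± 0.05) were lower (log2 scale, SE). The log2 ratio of Peg10 to Ppp1r9a within a library was 3.43, 3.38 and 3.49 in GFP and 4.49, 4.85 and 4.28 in CRE. That of Sgce to Ppp1r9a was 3.89, 3.51 and 3.67 against 4.66, 5.04 and 4.57. Relative to the maternally expressed Ppp1r9a, both paternally expressed neighbours were thus higher in CRE, by 1.11 and 1.07 on the log2 scale, with no overlap between the groups and an exact permutation p of 0.1 for each. Both ratios share Ppp1r9a and are not independent. Peg10 (-0.34) and Sgce (-0.37) did not rise themselves, but fell less than Ppp1r9a (-1.44).

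**Figure D4:**
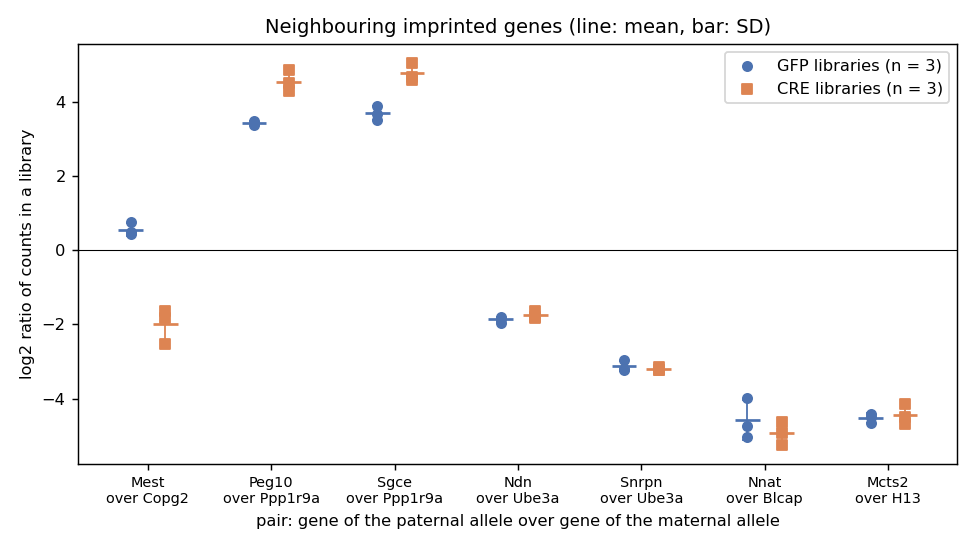
Log2 ratio of counts between a paternally expressed gene and a maternally expressed neighbour, 1 point per library (GFP circles, CRE squares), with the mean as a line and the SD as a bar. The ratio of Mest to Copg2 falls from above 0 to below 0, both ratios to Ppp1r9a rise, and the other 4 pairs overlap between groups.

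In all, 7 pairs of neighbours with opposite alleles were compared in this way, and only the 3 ratios already given did not overlap between groups. Of these, the ratios of Peg10 and of Sgce share Ppp1r9a. Adjusted over the pairs, the smallest p was 0.233, since no exact permutation p of 3 against 3 libraries falls below 0.1. The ratio of Ndn to Ube3a differed by 0.11, that of Snrpn to Ube3a by -0.07, that of Nnat to Blcap by -0.35 and that of Mcts2 to H13 by 0.08 on the log2 scale (CRE minus GFP). Mcts2 lies inside H13 on the same strand and Nnat inside Blcap on the other, so reads of these genes may be split unevenly between them.

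The Snrpn cluster of chromosome 7 moved little. Ndn, or necdin, a growth-suppressing protein of neurons and mesenchyme, had 755, 885 and 983 counts in GFP and 1063, 1095 and 1061 in CRE, which did not overlap (0.23 ± 0.05, adjusted p = 0.00534). Ube3a, a ubiquitin ligase maternally expressed in neurons, had 2940, 3216 and 3427 against 3738, 3412 and 3780 counts. Its log2 fold change of 0.12 ± 0.04 lay just past the threshold (adjusted p = 0.0395), and DESeq2 gave an adjusted p of 0.0745. Snrpn, a spliceosome protein, had 318, 343 and 437 counts against 398, 362 and 424 and did not pass (0.04 ± 0.08, adjusted p = 0.687). Magel2, a partner of a ubiquitin ligase, had 0 counts in 5 libraries and 1 in the second CRE library.

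Among clusters with a single listed gene, Gnas, the locus of the stimulatory G protein alpha subunit, was the most abundant imprinted gene per length (601 ± 13.96 FPKM in GFP and 488 ± 9.99 in CRE, SD, n = 3). Its counts of 15617, 17748 and 19027 in GFP and 12955, 13149 and 13573 in CRE did not overlap, and the log2 fold change was -0.47 ± 0.04 (SE, adjusted p = 7.94e-06). Igf2r, the maternally expressed receptor that carries IGF2 to lysosomes, had 8365, 8198 and 8736 counts against 7235, 6976 and 7929 (-0.27 ± 0.06, adjusted p = 0.00375). Impact, which restrains the eIF2 alpha kinase GCN2, had 3512, 3621 and 3800 against 3393, 3235 and 3613 counts (-0.17 ± 0.05, adjusted p = 0.0187). The calls of Igf2r and Impact ended when libraries were scaled by totals alone (-0.10 and -0.004 on the log2 scale, adjusted p = 0.152 and 0.949) and on FPKM plus 1 (adjusted p = 0.197 and 0.36 by limma). Trappc9, a trafficking subunit that hosts Peg13, was higher in CRE at 864, 840 and 817 counts against 636, 669 and 724 (0.24 ± 0.06, adjusted p = 0.00432).

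Slc38a4, an amino acid transporter, had 44, 31 and 42 counts in GFP and 20, 27 and 30 in CRE, and its change of -0.67 ± 0.26 fell just short (adjusted p = 0.0519). Plagl1, the zinc finger factor ZAC1, had 331, 292 and 318 counts against 297, 312 and 381, with a log2 fold change of 0.00 ± 0.12 whose sign changed with the scaling. Inpp5f, a phosphoinositide phosphatase, had from 367 to 422 counts in GFP and from 360 to 442 in CRE (-0.09 ± 0.09, adjusted p = 0.431). Commd1, an endosomal sorting protein, had from 290 to 346 against 296 to 318 counts (-0.07 ± 0.08, adjusted p = 0.462). Of these 4 genes, Slc38a4 was the only one whose groups did not overlap. In the clusters of 2 listed genes, Blcap was higher in CRE at 811, 847 and 843 counts against 627, 575 and 639 (0.37 ± 0.07, adjusted p = 0.00211). Nnat, or neuronatin, lay at 19 to 36 counts in GFP and 21 to 34 in CRE (0.00 ± 0.32, adjusted p = 0.999). H13, a signal peptide peptidase, had 2434, 2655 and 2828 counts in GFP and 2799, 2669 and 2776 in CRE (-0.01 ± 0.04, adjusted p = 0.859), but passed as higher with library totals alone (0.15, adjusted p = 0.00828). Mcts2, its inner retrogene, had 95 to 132 counts in GFP and 102 to 157 in CRE (0.08 ± 0.15, adjusted p = 0.689).

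There were 6 clusters with 2 or more tested genes, and 3 of them (Kcnq1ot1, Peg10 and Snrpn) had 2 or more that passed. Those that passed were higher in Kcnq1ot1 and Snrpn and lower in Peg10, but Kcnq1ot1 counts Cdkn1c, whose direction was fixed by the count filter, and Snrpn counts Ube3a, which lay just past the threshold. Around all 18 clusters, 121 other genes within 500 kb were tested, of which 26 were higher and 31 lower. Their 47.1% of calls and their median size of change of 0.24 were close to the values for all genes, and 15.7% passed with a fold of 1.5. The 9 listed genes with a row but too few reads never exceeded 14 counts in a library.

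Of a further 41 imprinted genes outside the list, 31 had a row and 20 could be tested. Sfmbt2 (1.07), Begain (0.90) and Tfpi2 (0.28) were higher, and Htr2a (-0.93), Ampd3 (-0.82), Dcn (-0.80), Dhcr7 (-0.68) and Pon3 (-0.26) were lower on the log2 scale. These are 8 of the 20 tested, below the 51.2% of all genes that passed. Begain needed its CRE libraries to pass the count filter, which favoured its direction. Dcn, or decorin, is also one of the fibroblast markers counted above. Igf2, the paternally expressed growth factor cleared by Igf2r, had 21, 45 and 30 counts in GFP and 33, 35 and 19 in CRE (-0.20 ± 0.33, adjusted p = 0.637).

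Of 19 genes that keep or remove imprinting marks, 18 were tested, 1 was higher and 7 were lower, a share of 44.4% against 51.2% of all genes. The 7 include Tet3, the deleted gene, whose fall was set by the design. Zfp445, a zinc finger guardian of imprints, had 1755, 2015 and 2215 counts in GFP and 2677, 2587 and 2843 in CRE (0.37 ± 0.04, adjusted p = 7.41e-05). Zfp57 (-0.03 ± 0.10, adjusted p = 0.823), Trim28 (-0.02 ± 0.05, adjusted p = 0.804) and Dnmt1 (-0.13 ± 0.06, adjusted p = 0.101) did not pass. Dnmt3l, the cofactor of de novo methylation in germ cells, was low and lower in CRE (67, 67 and 84 against 12, 16 and 25 counts, -2.10 ± 0.25, adjusted p = 7.36e-05). Uhrf1 (-0.65), which brings DNMT1 to replicated DNA, Hells (-0.46), Tet2 (-0.34), Arid4a (-0.24) and Atrx (-0.23) were also lower on the log2 scale, beside Tet3. DNA methylation was not measured in these libraries.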

How the data were processed

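Primary cardiac fibroblasts were profiled by RNA-seq in 6 libraries (3 GFP and 3 CRE). The deposited counts per gene were obtained by the authors with HTSeq-count, from reads cleaned by Trimmomatic and placed on GRCm38 by HISAT2. The authors calculated the deposited FPKM values with Cufflinks. The methods name a stranded poly(A) kit and the labels another kit, so the strand setting is unsettled. The log2 fold change, p-value and FDR columns hold the authors' comparison and were not used.

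Genes passing filterByExpr (12862 of 22063) were tested with edgeR 4.0.16 (quasi-likelihood, TMM scaling, two-sided, Benjamini-Hochberg over all genes, threshold 0.05), after the code was tested on simulated data. CPM values are scaled by TMM, except the floor of 3 counts, which uses library totals, and ± marks an SD or SE as stated. Ratios within a library were taken after adding 0.5 counts. Positions come from GENCODE release M21 (GRCm38) and promoters from RefSeq (GRCm38.p6), where no entry was found for 8 listed genes. Alternatives were other scalings, filters, thresholds, DESeq2 1.42.0, limma 3.58.1 (voom, and log2 of FPKM plus 1 or 0.1), a replicate block and each library left out. The floor of 3 counts covers counting error only. Values in every library were given for genes beyond a fold of 1.5 and their cluster, and at most 3 nearby genes of each such cluster were named. The genes and lists were chosen with earlier results of these data known.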

Additional observations from a re-analysis of the deposited data

How the results depend on the processing

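The 7 genes beyond a fold of 1.5 kept their direction and stayed past the threshold in every alternative that tested them. For Cdkn1c the direction was fixed by the count filter of the main test, so its being kept adds no support. For Zdbf2 the filter favoured the direction, so its being kept adds little. On FPKM plus 1 the log2 fold change of Zdbf2 shrank to 0.20, of Ppp1r9a to -0.39 (both under a fold of 1.5) and of Cdkn1c to 0.74. A minimum of 10 counts in every library removed Cdkn1c, Dio3 and Zdbf2 from the test. The study's own threshold (unadjusted p under 0.05 with a fold over 1.5 or under 0.66) passed 2290 genes, with 3 imprinted genes higher and 5 lower. Leaving out 1 library at a time gave 5641 to 6517 genes, with 7 to 8 imprinted genes higher and 8 to 9 lower. Replicate numbers showed no clear pairing (r = 0.028, 0.21 and -0.039 between same-numbered libraries, and -0.13 to 0.11 between differently numbered ones). With 3 libraries a group, these values cannot settle whether the libraries were paired. A replicate block gave 6633 genes, with 8 imprinted genes higher and 9 lower.

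Library totals alone raised the median gene by 0.16 on the log2 scale and made 72.6% of all calls higher, against 49.8%. The sign then turned for Copg2 (0.119), Cd81 (0.103), Plagl1 (0.161), Commd1 (0.088), Inpp5f (0.068) and H13 (0.152), and Tssc4 and H13 passed. On FPKM plus 1, Copg2 (0.157), Cd81 (0.072), Commd1 (0.038), Inpp5f (0.007) and H13 (0.135) turned, and on FPKM plus 0.1 the same 5 did (0.168, 0.072, 0.04, 0.009 and 0.137). On both FPKM scales Tssc4 and H13 passed by limma and Igf2r, Peg10 and Impact did not (adjusted p from 0.197 to 0.369). Other turns were within 0.02 of 0, for Nnat by RLE (-0.002), no filter (-0.005) and DESeq2 (-0.004), for Plagl1 by upper quartile (0.018), 10 counts (0.003) and voom (0.005), and for H13 by upper quartile (0.009). Without 1 library the log2 fold change ran from -0.097 to 0.107 for Plagl1, -0.235 to 0.3 for Nnat, -0.003 to 0.121 for Snrpn, -0.023 to 0.001 for H13 and -0.08 to 0.204 for Mcts2. The difference in log2 ratio ran from -0.118 to 0.01 for Snrpn to Ube3a and -0.08 to 0.202 for Mcts2 to H13. Beyond that, Ube3a lost its call without a filter (adjusted p = 0.0698), by DESeq2 (0.0745) and without GFP2, GFP3, CRE1 or CRE3 (0.0798 to 0.121 by edgeR). Impact lost its call without CRE1 or CRE2 (0.0624 and 0.0758), and Slc38a4 passed with 10 counts (0.0419) and without GFP2 (0.0342). Of 477 values for single genes under 16 alternatives, 420 kept sign and side of the threshold. The causes were not tested. Depth limits the 9 untested genes, which never exceeded 14 counts.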
